A study of Homo sapiens with 14 samples.

Results

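The chaperones, folding enzymes, degradation factors and stress sensors of the endoplasmic reticulum (ER) were followed by RNA sequencing in KYSE510, a cell line from an esophageal squamous cell carcinoma, 48 h after transfection of small interfering RNA (siRNA). The 34 genes were taken by symbol from both expression tables, which list 63677 genes each, and fall into 19 chaperones and folding enzymes, 11 genes of ER-associated degradation, and 4 genes made up of the stress sensors and XBP1. A gene was kept in a table where its mean over the 6 libraries was at least 1 FPKM, a level scaled by gene length and library depth. This kept 32 of the 34 in the EZH2 series, of 11585 genes in all, and 33 in the LAT1 series, of 11678.

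The EZH2 series held 2 libraries each of siEZH2-1, siEZH2-2 and the negative control siNC. Both EZH2 siRNAs target the histone methyltransferase of Polycomb repressive complex 2. The LAT1 series held 2 libraries each of siLAT1-2, siLAT1-3 and an siNC of its own, and its target is the leucine and methionine carrier encoded by SLC7A5. The labels name no other treatment and no genetic change of the cells. The controls also carried a transfected siRNA, and the siNC libraries of a series serve both of its siRNAs. No library measured protein, so every value below is the RNA of a gene.

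Proteins that enter the ER are folded by chaperones such as HSPA5 (BiP) and HSP90B1 (GRP94), held by the lectins calreticulin and calnexin while their sugars are trimmed, and given disulfide bonds by the protein disulfide isomerases. Proteins that do not fold are recognised by lectins and mannosidases, passed through a membrane channel, tagged with ubiquitin and destroyed in the cytosol. When misfolded protein builds up, the membrane sensors IRE1 (encoded by ERN1), PERK (encoded by EIF2AK3) and ATF6 start the unfolded protein response. IRE1 splices the XBP1 messenger into the form that encodes an active transcription factor, and cleaved ATF6 and spliced XBP1 switch on many of the genes described here. A gene-level FPKM counts spliced and unspliced XBP1 together, so splicing was not measured.

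ATF6 and XBP1 are known to act through short promoter elements, which lie in the promoters of some of these genes and are printed as background. RefSeq promoter windows on GRCh38.p14, from 250 bases before to 50 bases after 1 start per gene, matched 31 of the 34 genes (ERO1L under its present symbol, ERO1A). For CANX that start lies inside the gene: its upstream bases are chr5:179698679-179698928, and the gene begins at 179678656. On both strands 3 motifs were searched: the ER stress response element ERSE (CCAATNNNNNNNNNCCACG), the shorter ERSE-II (ATTGGNCCACG) and the XBP1-type element UPRE (TGACGTGG). ERSE was found in 6 of the 31 promoters (19.4%) and in 22 of all 27305 promoters (0.0806%). ERSE-II was found in 3 of the 31 (9.68%) and in 15 of all (0.0549%). UPRE was found in 2 of the 31 (6.45%), HYOU1 and VCP, and in 217 of all (0.795%). In HYOU1 the UPRE overlaps the upstream of its pair of ERSE-II matches. The genes with an ERSE were HSPA5, HSP90B1 (a pair of matches), CALR, CANX, CRELD2 and XBP1, and those with an ERSE-II were SDF2L1, HYOU1 and HERPUD1. Several genes with called changes below, P4HB, EDEM1, UGGT1, DERL2, EDEM2, DNAJB9 and SYVN1, held neither motif. A match is a description of letters, not evidence of binding. ATF6 and XBP1 are known to switch on many of these genes. The shares are therefore background, not a result of these libraries, and were not tested.

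The windows below run 5′ to 3′ on the gene's strand, with 20 bases on each side of the motif, which is in capitals. In HSPA5, XBP1, HERPUD1 and the HSP90B1 window the capitals read as the motif itself. In CALR, CRELD2, SDF2L1 and HYOU1 they hold its reverse complement. Coordinates are those of GRCh38.p14.
HSPA5 (ERSE, chr9:125241371-125241429, minus strand): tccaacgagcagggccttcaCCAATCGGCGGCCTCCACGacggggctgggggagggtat
HSP90B1 (ERSE, chr12:103930196-103930254, plus strand): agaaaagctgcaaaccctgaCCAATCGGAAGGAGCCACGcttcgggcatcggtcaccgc
CALR (ERSE, chr19:12938364-12938422, plus strand): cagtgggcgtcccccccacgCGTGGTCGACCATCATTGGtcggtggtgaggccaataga
CRELD2 (ERSE, chr22:49918534-49918592, plus strand): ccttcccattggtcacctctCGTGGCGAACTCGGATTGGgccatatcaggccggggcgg
XBP1 (ERSE, chr22:28800583-28800641, minus strand): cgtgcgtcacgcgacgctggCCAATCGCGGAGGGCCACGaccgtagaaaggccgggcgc
HERPUD1 (ERSE-II, chr16:56932005-56932055, plus strand): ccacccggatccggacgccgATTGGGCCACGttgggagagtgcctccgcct
SDF2L1 (ERSE-II, chr22:21642094-21642144, plus strand): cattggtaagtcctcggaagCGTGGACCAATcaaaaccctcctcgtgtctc
HYOU1 (ERSE-II, chr11:119057360-119057410, minus strand): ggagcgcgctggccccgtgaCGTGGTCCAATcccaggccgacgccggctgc

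Libraries summed to between 245634 and 275399 FPKM, and the libraries of a group correlated at r = 0.993 to 0.995 across genes. The depth estimated from low values ran from 21060000 to 27180000 counted fragments or reads per library of the EZH2 series, and from 12760000 to 16700000 per library of the LAT1 series. EZH2 stood at 17.1 FPKM in siNC, 6.94 with siEZH2-1 and 6.22 with siEZH2-2 (mean log2 change -1.26). SLC7A5 stood at 410.3 FPKM in siNC, 83.3 with siLAT1-2 and 107 with siLAT1-3 (mean -2.11). The line showed its squamous markers at a summed 571 to 736 FPKM. Each list summed apart, fibroblast markers reached at most 3.4 FPKM in any library, endothelial markers 1.31 and immune markers 0.58. Of these, 1 fibroblast marker passed the filter in both series and 1 endothelial marker in the LAT1 series. In bulk RNA, fewer cells of a type and less RNA per cell cannot be told apart.

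With no target siRNA the leading ER chaperones were among the most abundant messengers of these cells. In the EZH2 series siNC, CANX, the membrane-bound lectin chaperone calnexin, stood at 302 FPKM ± 23.3 (SD, n = 2). HSPA5, the main Hsp70-type chaperone of the ER, followed at 253.5 ± 7.09. HSP90B1 stood at 182 ± 0.474 and CALR, the soluble lectin chaperone, at 158.5 ± 4.14. These 4 genes did not overlap each other in level and each lay above at least 98.2% of the 11585 genes tested. The chaperone group reached far down the scale as well, with DNAJC3, ERO1L, DNAJB9 and CRELD2 at percentiles 58, 49.3, 35.5 and 20.5 of the same genes. The LAT1 series siNC gave the same order for these 4, from CANX at 346 FPKM to CALR at 207, with no test set across the separately scaled tables.

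The disulfide isomerases PDIA3, PDIA4, PDIA6 and P4HB came next in siNC, between 58.9 and 98.9 FPKM in the EZH2 series and between 62.2 and 123 in the LAT1 series. VCP, the cytosolic ATPase that pulls substrates out of the membrane, stood among them at 77.3 and 101 FPKM and was the most abundant degradation gene in both. The other degradation genes were lower. In the EZH2 series they ran from OS9, a lectin that delivers glycoproteins to the ubiquitin ligase, at 18.8 FPKM down to EDEM3 at 5.74. XBP1 stood at 25.9 and 33.3 FPKM, above all of the sensors. ATF6 was at 10.8 and 12.2 FPKM and EIF2AK3 at 2.74 and 3.51. ERN1 straddled the filter: its 6 libraries read from 0.74 to 1 FPKM in the EZH2 series, where it was left out, and from 1.1 to 1.44 in the LAT1 series, where it was kept. DERL3, a derlin of secretory tissues, never exceeded 0.04 FPKM and was left out of both. In mid-order several neighbours overlapped, such as XBP1, SDF2L1, MANF and DNAJB11 in the EZH2 series, and their order there is not resolved.

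**Figure D1:**
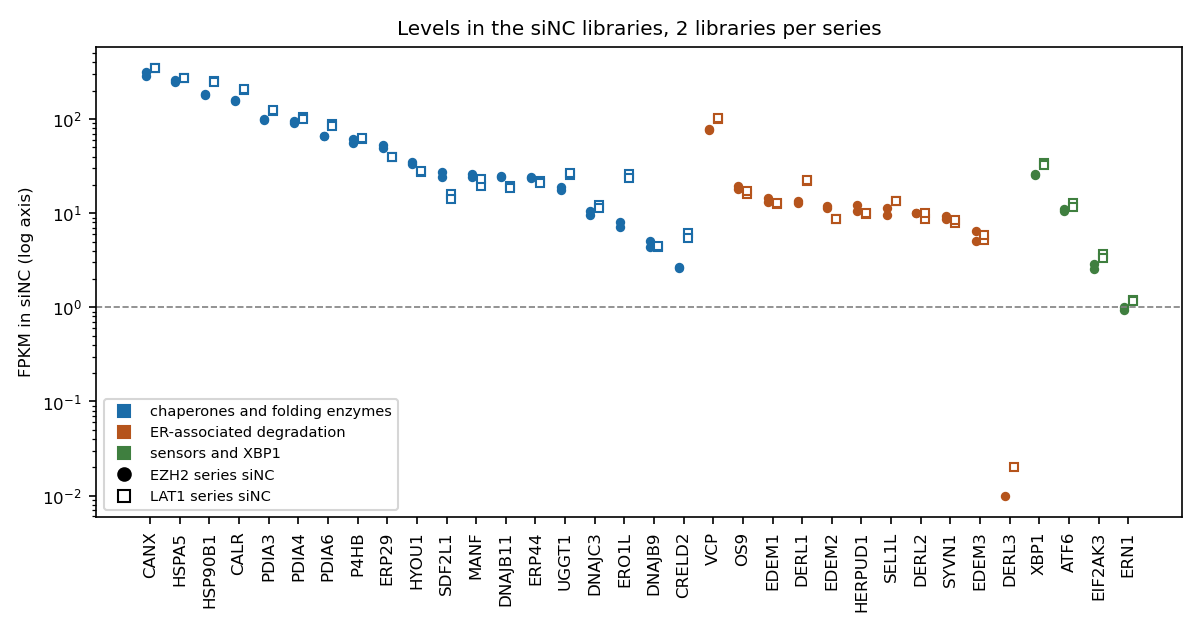
Level of each gene in FPKM (log axis) in the siNC libraries of the EZH2 series (filled circles) and of the LAT1 series (open squares), coloured by role, with the filter at 1 FPKM dashed. Chaperones occupy the top, VCP stands above the other degradation genes, and ERN1 sits on the dashed line (libraries at 0, as for DERL3, cannot be drawn on a log axis).

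With EZH2 silenced, few of these genes were called, and in both directions. With the mean of both siEZH2 against siNC, limma called 9 of the 32 kept genes, 5 higher and 4 lower, while 30.0% of all genes tested were called (17.0% higher and 13.0% lower). The genes' median log2 change was -0.03, against 0.03 over all genes tested. Chaperones and folding enzymes had 4 higher and 1 lower of 19, degradation genes 1 higher and 2 lower of 10, and XBP1 was the 1 gene called, lower, of the 3 in its class. The share called is near the background. Leaving out siNC replicate 1 or 2 left 5 or 4 called genes. With siEZH2-1 alone 6 genes were called higher and 2 lower (27.2% of all genes called, 15.9% higher and 11.4% lower), and with siEZH2-2 alone 1 higher and 6 lower (24.8%, 13.9% higher and 10.9% lower). Only P4HB, higher, and HERPUD1, lower, were also called with each siRNA alone, where the background is 8.93% higher and 4.05% lower.

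HERPUD1 encodes a membrane protein that organises the degradation ligase, and its RNA was lower with both EZH2 siRNAs. The siNC libraries read 10.7 and 12.2 FPKM, the siEZH2-1 libraries 6.88 and 7.16, and the siEZH2-2 libraries 8.19 and 7.88. All 4 siRNA libraries lay below both controls. The log2 change was -0.54 (95% interval -0.70 to -0.38, limma adjusted p = 0.00216) and held under every alternative and with any 1 library left out.

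P4HB, the isomerase that is also the beta subunit of collagen prolyl hydroxylase, was higher with both. Its siNC libraries read 55.9 and 61.9 FPKM, siEZH2-1 75.3 and 78.0, and siEZH2-2 77.0 and 76.0. The 4 siRNA libraries stood close together above the controls. The change was 0.37 (0.25 to 0.50, limma adjusted p = 0.00395), and the call with siEZH2-1 alone was lost without its replicate 2 (adjusted p = 0.0557).

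EDEM1, a mannosidase-like protein that marks misfolded glycoproteins for degradation, had the largest change of any of the genes with a single siRNA. It read 14.4 and 13.2 FPKM in siNC, 6.77 and 6.51 in siEZH2-1, and 10.4 and 12.1 in siEZH2-2. With siEZH2-1 the level was 48.2% of siNC (log2 -0.95, limma adjusted p = 0.00085). With siEZH2-2 it lay at 81.8% of siNC and missed the threshold (log2 -0.27, adjusted p = 0.0617). That contrast was called lower under quantile normalization (-0.29, adjusted p = 0.0428) and median-ratio scaling (-0.31, adjusted p = 0.0471). The difference between the siRNAs passed (0.68, adjusted p = 0.00386). The call for the mean of both was lost when both siRNAs were pooled as 1 group (adjusted p = 0.148).

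XBP1 and HSPA5 showed the opposite division, low with siEZH2-2. XBP1 read 25.8 and 26.0 FPKM in siNC and 24.9 and 25.4 in siEZH2-1, but 14.3 and 13.6 in siEZH2-2, which is 54.0% of siNC. Its log2 change was -0.84 with siEZH2-2 (limma adjusted p = 0.000289) and -0.04 with siEZH2-1 (adjusted p = 0.622), and the siRNAs differed by -0.81 (adjusted p = 0.000445). HSPA5 read 248 and 259 FPKM in siNC, 238 and 254 in siEZH2-1, and 185 and 181 in siEZH2-2. The siEZH2-2 libraries lay apart from the other 4, which overlapped. Its change with siEZH2-2 was -0.47 (adjusted p = 0.00201), with siEZH2-1 -0.04 (adjusted p = 0.584), and the difference was -0.43 (adjusted p = 0.00433). The mean of both siRNAs averages unlike values here. Pooled as 1 group, the adjusted p was 0.328 for XBP1 and 0.304 for HSPA5. For HSPA5 it also missed the threshold without siNC replicate 1 (0.0528) or replicate 2 (0.072).

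**Figure D2:**
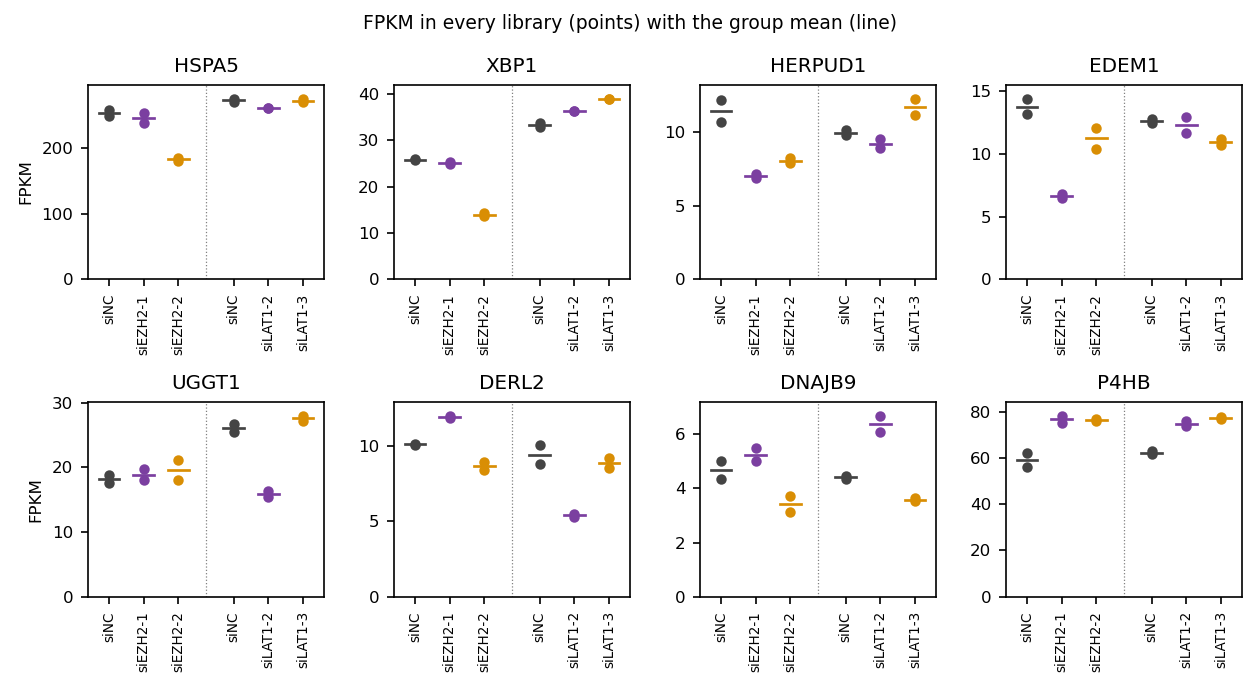
FPKM of 8 genes in each library (points) with the group mean (line), for the EZH2 series left of the dotted line and the LAT1 series right of it, on axes from 0. HSPA5 and XBP1 are low in siEZH2-2 alone, EDEM1 is lowest in siEZH2-1, and UGGT1 is low in siLAT1-2 alone. DERL2 is lowest in siLAT1-2 and also below its siNC in siEZH2-2, and P4HB is above siNC with all 4 siRNAs.

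Other chaperones were also lower with siEZH2-2 than with siEZH2-1. Between the EZH2 siRNAs limma called 9 of 32 genes, 8 of them lower and 1 higher with siEZH2-2, where the background is 16.3% (7.40% higher and 8.86% lower). The lower genes were HSPA5, the disulfide isomerases PDIA3, PDIA4 and PDIA6, the BiP co-chaperone DNAJB9, the disulfide-generating oxidase ERO1L, the derlin DERL2 and XBP1, and the higher gene was EDEM1. PDIA4 read 91.6 and 94.8 FPKM in siNC, 97.6 and 99.3 in siEZH2-1, and 78.2 and 79.0 in siEZH2-2, so that the controls lay between the siRNAs. Its change with siEZH2-2 was -0.24 (adjusted p = 0.0132) and its difference between siRNAs -0.32 (adjusted p = 0.00726), and the first was lost without siEZH2-2 replicate 1 (0.0653) or siNC replicate 1 (0.0537) or 2 (0.0814). PDIA3 and PDIA6 differed by -0.22 and -0.23 between the siRNAs without passing against siNC. Without 1 library the differences of PDIA3, PDIA4, PDIA6, DNAJB9 and ERO1L were lost, at adjusted p values up to 0.169, 0.0624, 0.127, 0.125 and 0.079, where siEZH2-1 replicate 2 (replicate 1 for ERO1L) was left out. The count of 9 fell to 5 without siEZH2-1 replicate 1 or 2 or siEZH2-2 replicate 1.

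ERO1L and DERL2 completed the pattern of unlike siRNAs. ERO1L, which supplies oxidising equivalents to P4HB and its relatives, read 8.02 and 7.11 FPKM in siNC, 12.6 and 11.0 in siEZH2-1, and 8.25 and 8.20 in siEZH2-2. It rose with siEZH2-1 to 156% of siNC (log2 0.58, limma adjusted p = 0.00501) and stood at 0.11 with siEZH2-2 (adjusted p = 0.399), and its call for the mean of both (0.34, adjusted p = 0.017) was lost without siNC replicate 2 (0.0971). DERL2, part of the membrane channel through which substrates leave the ER, read 10.1 and 10.0 FPKM in siNC, 11.9 and 11.8 in siEZH2-1, and 8.88 and 8.36 in siEZH2-2. It was called higher with siEZH2-1 (0.22, adjusted p = 0.0369) and lower with siEZH2-2 (-0.20, adjusted p = 0.0477). Each of these calls was lost without either library of the same siRNA or of siNC (adjusted p values up to 0.16, without siEZH2-1 replicate 2, and 0.186, without siNC replicate 1), whereas the difference between siRNAs of -0.42 (adjusted p = 0.00575) held. Calls in opposite directions were made for 0.570% of all genes.

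CALR, CRELD2 and OS9 made up the remaining called genes. CALR read 156 and 161 FPKM in siNC, 191 and 199 in siEZH2-1, and 179.5 and 172 in siEZH2-2, all 4 above the controls. Its mean change was 0.22 (limma adjusted p = 0.0149), and it lost the call without siEZH2-1 replicate 2 (0.0536) or siNC replicate 1 (0.13) or 2 (0.0562). CRELD2, an ER-resident protein induced in ER stress, was called at 0.31 and OS9 at 0.17 (adjusted p = 0.0286 and 0.0459), both above siNC in all 4 libraries. Both calls were lost without either siNC library, at adjusted p values up to 0.135 and 0.296 without siNC replicate 1. DNAJB9 was called with siEZH2-2 alone (-0.36, adjusted p = 0.0437), which was lost without 5 of the 6 libraries (adjusted p up to 0.207, without siNC replicate 1). The sensors themselves did not pass: ATF6 changed by -0.11 (interval -0.25 to 0.03) and EIF2AK3 by -0.17 (-0.37 to 0.02). HSP90B1, at 183 and 182 FPKM in siNC and 178 to 193 with the siRNAs, stood at 0.02 (-0.07 to 0.12). The chaperones CANX, DNAJB11, DNAJC3, SDF2L1, MANF, HYOU1, UGGT1, ERP44 and ERP29 and the degradation genes SEL1L, SYVN1, EDEM2, EDEM3, DERL1 and VCP were called in no contrast of this fit of the EZH2 series. HYOU1 was called lower with siEZH2-2 under quantile normalization (-0.17, adjusted p = 0.0427) and median-ratio scaling (-0.19, adjusted p = 0.0308). SEL1L, the ligase's scaffold, had a mean change of -0.29, but its interval ran from -0.61 to 0.03.

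With LAT1 silenced, most calls among the chaperones were higher and small, and several of these were lost without 1 control library. Standard errors were smaller than in the EZH2 series for most of the genes, at 0.0218 against 0.0474 for HSPA5. They were larger for EDEM2 (0.0647 against 0.059) and DERL2 (0.0618 against 0.0511). PDIA4 was called at 0.09 here (limma adjusted p = 0.0329) but not at -0.08 in the EZH2 series (adjusted p = 0.176). Counts of calls in the 2 series therefore do not compare the size of the changes. With the mean of both siLAT1 against siNC, limma called 14 of the 33 kept genes, 10 higher and 4 lower, where 34.5% of all genes were called (19.3% higher and 15.3% lower). The median was 0.09, against 0.01 over all genes. Chaperones and folding enzymes had 8 higher and 1 lower of 19, degradation genes 1 higher and 3 lower of 10, and XBP1 was the 1 gene called, higher, of the 4 in its class. CALR, P4HB, DNAJC3, CRELD2, EDEM3 and XBP1 were called higher, and SEL1L lower, with the mean and with each siRNA, where the background is 11.2% and 5.31%. No change with the mean reached 0.5 on the log2 scale, and the largest was -0.39, for DERL2. Without siNC replicate 2 the mean calls of the chaperones CANX, PDIA4, DNAJC3, HYOU1 and ERP44, all higher, were lost. No lower call was lost there. With siLAT1-2 alone 8 genes were called higher and 5 lower, where 32.5% of all genes were called (18.6% higher and 13.9% lower).

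Among the genes raised by both LAT1 siRNAs, P4HB read 61.6 and 62.8 FPKM in siNC, 76.0 and 73.7 in siLAT1-2, and 77.9 and 77.0 in siLAT1-3. The groups did not overlap, and the change was 0.29 (0.23 to 0.35, limma adjusted p = 0.000279). CALR read 206 and 209 FPKM in siNC, 254 and 247 in siLAT1-2, and 220.1 and 222 in siLAT1-3. It rose by 0.27 with siLAT1-2 and 0.09 with siLAT1-3, and the siRNAs differed (-0.18, adjusted p = 0.00356). The siLAT1-3 call (adjusted p = 0.0394) was lost without any 1 library of siLAT1-3 or siNC (up to 0.187, without siNC replicate 1).

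CRELD2 read 6.21 and 5.50 FPKM in siNC against 7.91 and 8.31 in siLAT1-2 and 7.79 and 7.72 in siLAT1-3, a rise of 0.38 (0.26 to 0.51, limma adjusted p = 0.00212). DNAJC3, a BiP co-chaperone also known as an inhibitor of PERK, read 12.3 and 11.4 FPKM in siNC, 16.0 and 13.9 in siLAT1-2, and 14.8 and 14.1 in siLAT1-3. Its rise of 0.28 (adjusted p = 0.0133) was lost without siNC replicate 2. The siLAT1-3 call (0.26, adjusted p = 0.0331) was lost under quantile normalization (0.0516) and median-ratio scaling (0.0508), and without any 1 library of siLAT1-3 or siNC. The siLAT1-2 call (0.30, adjusted p = 0.0178) was lost without siLAT1-2 replicate 1 or siNC replicate 2. EDEM3, a mannosidase of the EDEM family, rose by 0.28 (adjusted p = 0.00667), lost without siNC replicate 1. Its siLAT1-3 call (0.23, adjusted p = 0.0262) was lost without either siLAT1-3 library or siNC replicate 1. SEL1L read 13.6 FPKM in both siNC libraries and 10.7 to 11.7 with the siRNAs, below siNC in all 4 libraries. It fell by 0.27 on the log2 scale (adjusted p = 0.00196), which held with any 1 library left out.

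XBP1 rose in the LAT1 series. Its siNC libraries read 33.8 and 32.8 FPKM, both siLAT1-2 libraries 36.4, and siLAT1-3 39.0 and 38.9. The change was 0.17 (0.11 to 0.23, limma adjusted p = 0.00268), 0.13 with siLAT1-2 and 0.22 with siLAT1-3. With both siRNAs pooled as 1 group the call was lost (adjusted p = 0.0681). The siLAT1-2 call (adjusted p = 0.0182) was lost without either of its libraries (0.0679 and 0.0714) or siNC replicate 2 (0.105). HSPA5 was called in no contrast of this fit: siNC read 270.4 and 275 FPKM, siLAT1-2 both 261, and siLAT1-3 269.7 and 274, for a mean change of -0.03 (-0.08 to 0.02). Both siLAT1-2 libraries lay below siNC (log2 -0.06, limma adjusted p = 0.103), and under median-ratio scaling that contrast was called (-0.08, adjusted p = 0.0423). ERN1 stood at 0.09 (-0.12 to 0.31). ATF6, at 12.7 and 11.6 FPKM in siNC and 11.7 and 12.2 in siLAT1-2, was 14.4 and 14.6 in siLAT1-3 and was called there alone (0.24, adjusted p = 0.0144, up to 0.0739 without siNC replicate 2). EIF2AK3 was also called with siLAT1-3 alone, lower (-0.26, adjusted p = 0.0446, up to 0.205 without siNC replicate 1).

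The quality-control genes UGGT1, DERL2 and EDEM2 differed between the LAT1 siRNAs and were lowest with siLAT1-2. UGGT1, the glucosyltransferase that returns unfolded glycoproteins to calnexin and calreticulin, read 25.6 and 26.6 FPKM in siNC, 15.5 and 16.3 in siLAT1-2, and 27.2 and 27.9 in siLAT1-3. It was at 60.9% of siNC with siLAT1-2 (log2 -0.68, limma adjusted p = 6.22e-05), and the siRNAs differed by 0.76 (adjusted p = 5.85e-05).

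DERL2 read 8.75 and 10.0 FPKM in siNC, 5.48 and 5.27 in siLAT1-2, and 9.18 and 8.50 in siLAT1-3 (log2 -0.70 and -0.08, difference 0.63, limma adjusted p = 0.0012). EDEM2, which starts the mannose trimming that marks glycoproteins for degradation, read 8.72 and 8.63 FPKM in siNC, 5.08 and 5.28 in siLAT1-2, and 7.25 and 8.59 in siLAT1-3 (-0.65 and -0.12, difference 0.53, adjusted p = 0.00311). EDEM2 lay below siNC in all 4 siRNA libraries, and without siLAT1-3 replicate 2 it was also called lower with siLAT1-3 (-0.23, adjusted p = 0.0457). For UGGT1, DERL2 and EDEM2 the siLAT1-2 libraries lay below every other library, and the siLAT1-2 calls and the differences held with any 1 library left out. Their calls for the mean of both were lost with the siRNAs pooled as 1 group (adjusted p = 0.502, 0.313 and 0.254).

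DNAJB9 and SYVN1 were called in opposite directions with the LAT1 siRNAs, as were 1.46% of all genes. DNAJB9 read 4.34 and 4.47 FPKM in siNC, 6.08 and 6.67 in siLAT1-2, and 3.52 and 3.65 in siLAT1-3. Its changes were 0.45 (limma adjusted p = 0.00219) and -0.24 (adjusted p = 0.028), and the difference was -0.68 (adjusted p = 0.000459). SYVN1, the ubiquitin ligase HRD1, read 7.92 and 8.55 FPKM in siNC, 7.11 and 6.77 in siLAT1-2, and 9.33 and 10.0 in siLAT1-3. It changed by -0.22 (adjusted p = 0.0284) and 0.21 (adjusted p = 0.0342), a difference of 0.43 (adjusted p = 0.0026). Both differences held with any 1 library left out, whereas the siLAT1-3 call of DNAJB9 and both calls of SYVN1 did not (adjusted p up to 0.127, without siNC replicate 2, for DNAJB9, and up to 0.15 and 0.174, without siNC replicate 2 and 1, for SYVN1).

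With siLAT1-3 alone most chaperones were called higher. Of 19 chaperones and folding enzymes 12 were called higher, 1 lower (DNAJB9) and 6 did not pass, where 31.4% of all genes were called (17.9% higher and 13.6% lower). The rises were small. HSP90B1 went from 251 and 250.3 FPKM in siNC to 265 and 272 (log2 0.10, limma adjusted p = 0.0267), and CANX from 346 in both to 392 and 379 (0.16, adjusted p = 0.00657). PDIA3 (0.12), PDIA4 (0.13), PDIA6 (0.12), HYOU1 (0.12), MANF (0.29) and ERO1L (0.23) were also called. Leaving out 1 library ended each of these calls. Without siNC replicate 1 the adjusted p was 0.0504 for CANX, 0.0964 for PDIA3, 0.17 for HYOU1 and 0.229 for MANF. Without siNC replicate 2 it was 0.128 for HSP90B1, 0.0837 for PDIA4 and 0.221 for PDIA6, and without siLAT1-3 replicate 1 it was 0.0627 for ERO1L. ERP44, which retains ERO1 enzymes in the early secretory pathway, was called with siLAT1-2 (0.16) and with the mean (0.14, lost without siNC replicate 2 at 0.138). EDEM1 was called lower with siLAT1-3 (-0.19, adjusted p = 0.0408, up to 0.165 without siNC replicate 2). Of all 33 kept genes 17 were called higher and 4 lower, and this count rested on single libraries: leaving out siLAT1-3 replicate 1 or 2, or siNC replicate 1 or 2, the total of 21 called genes went to 10, 7, 8 and 6. The summed chaperone level did not overlap between groups, at 1666.0 and 1668.6 FPKM in siNC, 1733.5 and 1733.8 in siLAT1-2, and 1802.4 and 1807.9 in siLAT1-3.

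Between the LAT1 siRNAs 13 of 33 genes were called, 11 higher and 2 lower with siLAT1-3, where 25.5% of all genes were called (12.4% higher and 13.1% lower), a count that fell to 8 without siLAT1-3 replicate 2. The higher genes were UGGT1, DERL2, EDEM2, SYVN1, ERO1L, HERPUD1, ATF6, CANX, PDIA3, PDIA4 and PDIA6, and the lower were DNAJB9 and CALR. ERO1L read 25.9 and 23.6 FPKM in siNC, 21.8 and 22.5 in siLAT1-2, and 29.6 and 28.8 in siLAT1-3, a difference of 0.38 (limma adjusted p = 0.00192). HERPUD1 read 9.77 and 10.1 FPKM in siNC, 9.49 and 8.88 in siLAT1-2, and 11.1 and 12.2 in siLAT1-3, a difference of 0.31 (adjusted p = 0.0087). The differences of CANX, PDIA3, PDIA4, PDIA6 and ATF6 were lost without 1 library, at adjusted p up to 0.144 (without siLAT1-3 replicate 1), 0.0798, 0.173 and 0.182 (without siLAT1-3 replicate 2) and 0.0643 (without siLAT1-2 replicate 1). DNAJB11, SDF2L1, ERP29, DERL1, OS9, VCP, HSPA5 and ERN1 were called in no contrast of this fit of the LAT1 series, and of these DNAJB11, SDF2L1, VCP and HSPA5 were called in at least 1 contrast under another setting.

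**Figure D3:**
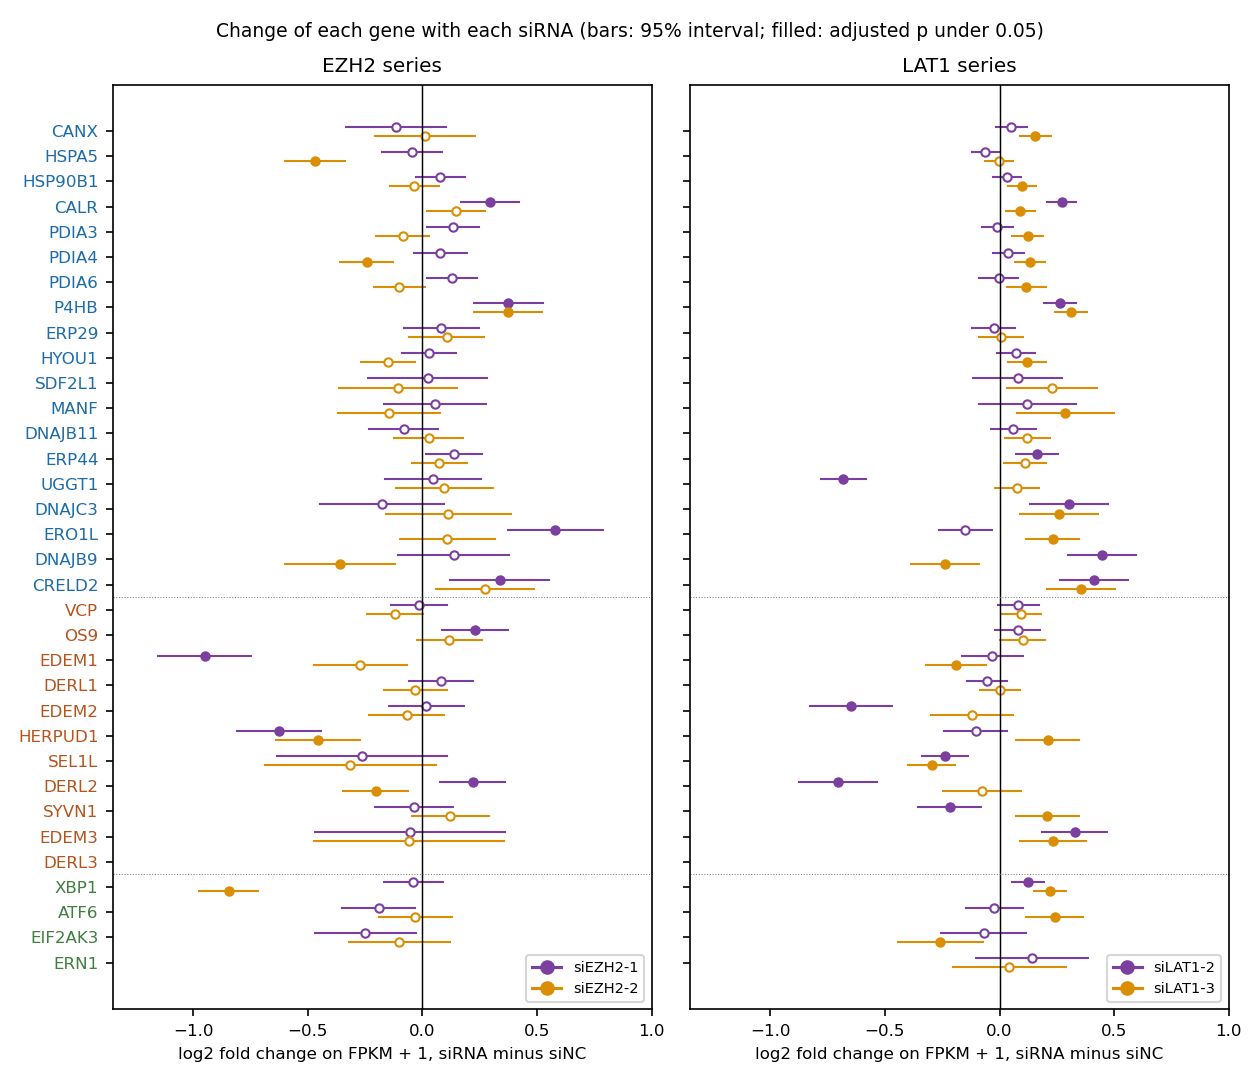
Log2 fold change of each gene on FPKM + 1 with each siRNA against the siNC of its series (purple: siEZH2-1 or siLAT1-2, orange: siEZH2-2 or siLAT1-3), with 95% intervals and filled points at an adjusted p under 0.05; gene names are coloured by role (blue chaperones, brown degradation, green sensors and XBP1). DERL3 in both panels and ERN1 in the EZH2 panel were below the filter; EDEM1 at -0.95 with siEZH2-1 is the widest change.

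**Figure D4:**
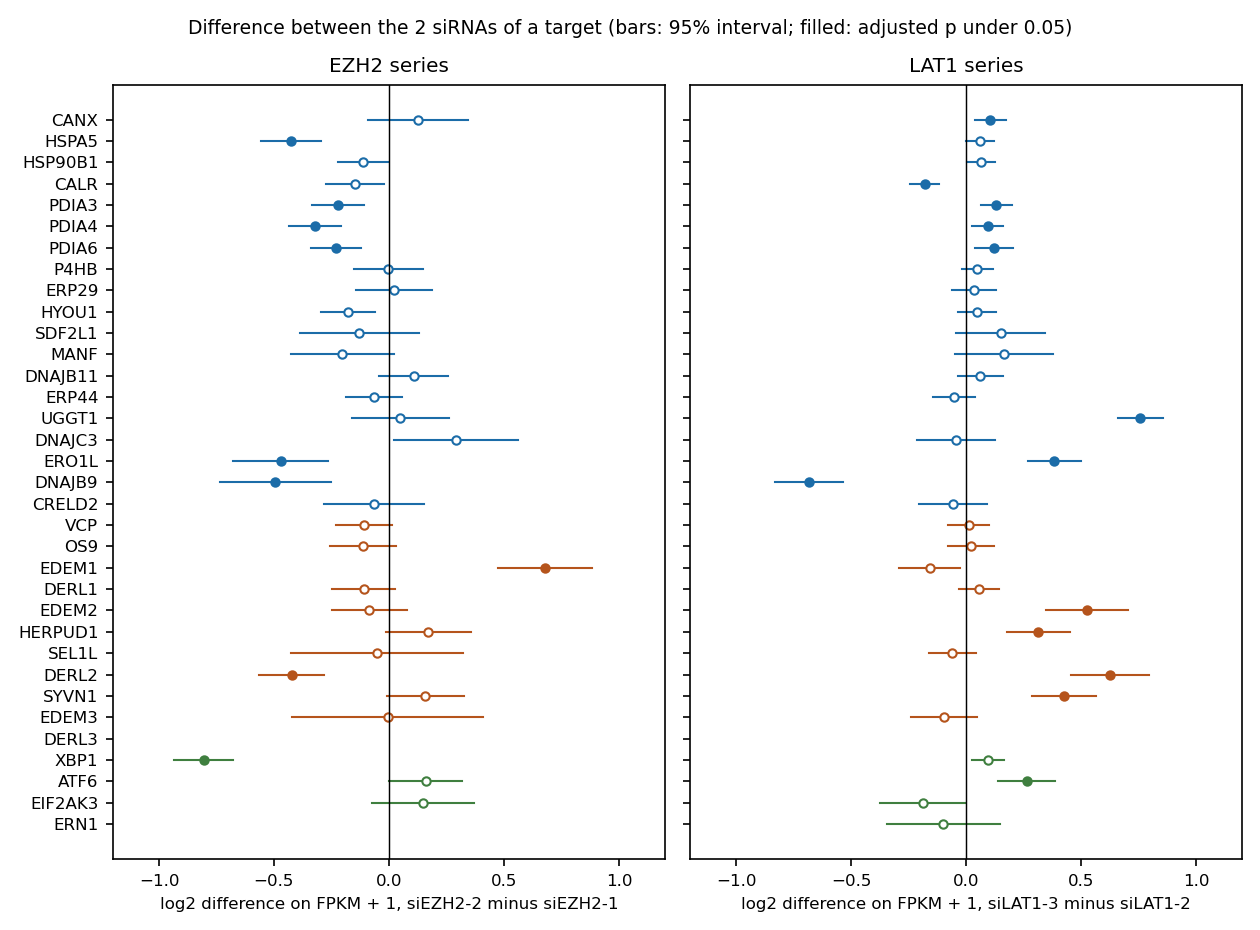
Log2 difference between the siRNAs of a target on FPKM + 1, with 95% intervals and filled points at an adjusted p under 0.05, coloured by role as blue chaperones, brown degradation genes, and green sensors and XBP1. XBP1 at -0.81 and EDEM1 at 0.68 stand out in the EZH2 panel, and UGGT1 at 0.76 and DNAJB9 at -0.68 in the LAT1 panel.

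Set side by side, some genes were called in both series, and the share of all genes called in both was not counted. CALR, CRELD2 and P4HB were called higher with the mean of both siRNAs in each series. XBP1 was called lower in the EZH2 series, where siEZH2-1 alone did not pass, and higher in the LAT1 series. HSPA5, EDEM1 and HERPUD1 were called lower with that mean in the EZH2 series alone. UGGT1, SEL1L, EDEM2 and DERL2 were called lower with it in the LAT1 series alone. The difference between series was not tested, since the tables were scaled apart. SEL1L had a similar mean change with the EZH2 siRNAs (log2 -0.29, standard error 0.135) and with the LAT1 siRNAs (-0.27, standard error 0.0367). Its call went with the smaller standard error, not with a larger change. In the EZH2 series all 4 siRNA libraries lay above both siNC libraries for 6 of 32 genes and below for 4, where 25.1% and 15.3% of all genes did so. In the LAT1 series these counts were 13 and 2 of 33, where 24.4% and 16.9% of all genes did so.

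Summed together, the 34 genes made up 0.631% to 0.6437% of all FPKM in the siNC libraries of the EZH2 series, 0.6247% to 0.6396% in siEZH2-1 and 0.5729% to 0.6024% in siEZH2-2. In the LAT1 series the share was 0.7612% to 0.7663% in siNC, 0.8043% to 0.8107% in siLAT1-2 and 0.8327% to 0.8361% in siLAT1-3. The siEZH2-2 libraries had the lowest share in their series and the siLAT1-3 libraries the highest in theirs. The summed degradation genes stood at 95.4% of siNC with siEZH2-1, 92.1% with siEZH2-2, 98.0% with siLAT1-2 and 103% with siLAT1-3. The summed chaperones stood at 105%, 95.7%, 104% and 108% in the same order. These sums weigh the most abundant genes most. With siEZH2-2 the chaperone sum was 1379.1 FPKM against 1441.65 in siNC, while HSPA5 alone stood at 183 against 253.5. With siLAT1-2 it was 1733.65 against 1667.3, while CALR alone stood at 250 against 207. The median log2 changes of the chaperones were 0.08, 0.01, 0.06 and 0.12 in the same order. The degradation sum with siLAT1-2, 202 and 205 FPKM, overlapped that of siNC, 204 and 212.

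Over the 6 libraries of the EZH2 series, the genes whose log2 level was most like that of HSPA5 were XBP1 (Pearson r = 0.991), HYOU1 (0.962), VCP (0.959), PDIA4 (0.945) and DNAJB9 (0.855). In the LAT1 series they were EDEM2 (0.964), UGGT1 (0.955), DERL2 (0.94), DERL1 (0.864) and SYVN1 (0.855), so the genes named differ between the series. The 6 libraries are 3 groups with shared siNC, and HSPA5 itself spanned only 261 to 275 FPKM in the LAT1 series.

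Among the 9 kept genes with an ERSE or ERSE-II, whose windows are printed above except that of CANX, 0 were called higher and 3 lower with siEZH2-2 (HSPA5, HERPUD1 and XBP1), where 13.9% of all genes were called higher and 10.9% lower. With siLAT1-3, 7 were called higher and 0 lower (HSP90B1, CALR, CANX, CRELD2, HYOU1, HERPUD1 and XBP1), where 17.9% of all genes were higher and 13.6% lower. The siLAT1-3 calls of HSP90B1, CALR, CANX, HYOU1 and HERPUD1 were all lost without siNC replicate 1, and only those of CRELD2 and XBP1 held. Of the kept genes without either motif, 1 of 21 was higher and 3 lower with siEZH2-2, and 9 of 22 were higher and 4 lower with siLAT1-3. With siEZH2-1, 2 of the 9 were higher and 1 lower, where 15.9% and 11.4% of all genes were. With siLAT1-2, 3 were higher and 0 lower, where 18.6% and 13.9% of all genes were. The median log2 changes with and without a motif were -0.11 and -0.06 with siEZH2-2, and 0.16 and 0.11 with siLAT1-3. These counts and medians are a description with no test between the sets.

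Other genes of the ER and stress pathways were counted from lists that share no gene with the 34. With the mean of both EZH2 siRNAs 30.0% of all genes were called, 17.0% higher and 13.0% lower, and the called shares of the lists ran from 15.8% for heat shock genes to 47.4% for the PERK arm. In the EZH2 series, N-glycan transfer and trimming had 6 higher and 0 lower of 17 with the mean of both siRNAs, led by GANAB, the catalytic subunit of glucosidase II (log2 1.83), and ALG5 (0.31). Further folding enzymes had 6 higher and 3 lower of 28, among them the ER peroxiredoxin PRDX4 (1.18), TXNDC12 (0.50), and the calcium-binding RCN1 (-0.61) and RCN2 (-0.38). The PERK arm with ATF4 targets had 2 higher and 7 lower of 19, median -0.12, with ATF3 higher (0.46) and NFE2L2 lower (-0.41). Further degradation factors had 4 higher and 5 lower of 29, including ERLIN1 (0.66), the deubiquitinase YOD1 (-0.64) and the ubiquitin-conjugating enzyme UBE2J1 (-0.61). The translocon and signal peptidase had 3 and 3 of 20, with the peptidase subunits SEC11C (0.40) and SEC11A (0.30) higher. ATF6 and IRE1 partners had 2 and 1 of 18, with TRAF2 (0.72) and CREB3 (0.43) higher and TMBIM6, known as BAX inhibitor-1, lower (-0.63). Cytosolic and mitochondrial heat shock genes had 2 and 1 of 19, with the mitochondrial protease LONP1 (0.83) and chaperonin HSPD1 (0.30) higher and the Hsp70 co-chaperone BAG3 lower (-0.36).

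In the LAT1 series each of these lists had more higher than lower calls, as did all genes, of which 19.3% were higher and 15.3% lower. The balance over all genes turned under median-ratio scaling, to 1972 higher and 2115 lower. Further folding enzymes had 9 higher and 4 lower of 28, with PRDX4 (0.82) and FKBP14 (0.59) leading. N-glycan genes had 7 and 3 of 17, led by GANAB (1.53) and OSTC (0.25). The PERK arm had 8 higher and 3 lower of 19, median 0.05, with the ATF4 targets TRIB3 (0.90) and SESN2 (0.37) higher and the eIF2alpha phosphatase subunit PPP1R15B lower (-0.40). Further degradation factors had 10 and 3 of 29, with ERLIN1 (0.74) higher and YOD1 (-0.63) and UBE2G2 (-0.31) lower. The translocon and signal peptidase had 5 and 3 of 20, with SEC11A (0.23) and SRPRB (0.21) higher and SSR1 (-0.36) and SEC62 (-0.20) lower. ATF6 and IRE1 partners had 5 and 4 of 18, with TRAF2 (0.49) and CREB3 (0.37) higher, and heat shock genes 7 and 3 of 19, with LONP1 (0.65) and HSPD1 (0.35) higher and BAG3 lower (-0.25). GANAB, PRDX4 and ERLIN1 changed more than any of the 34 genes did with the mean of both siRNAs in the same series, on the log2(FPKM + 1) scale.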

How the data were processed

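RNA was measured in 12 KYSE510 libraries, and each series has its own table with a column for each library. The authors deposited values that behave as FPKM, to 2 decimals, a reading taken from the values since no header names the unit. Per the submitters' processing notes the tools were STAR, Bowtie, Bowtie2, Picard, Trim Galore and SEACR, with hg38 and hg19 as builds and no roles given. The counting program and strand setting are not given in the sources used here. Promoter windows are credited to RefSeq GRCh38.p14 alone, as the build behind the tables is not given.

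Both tables were fitted separately. A gene entered where its mean was at least 1 FPKM. The model was limma 3.58.1 (R 4.3.3, with trend) on log2 values after adding 1 FPKM, with a group for each siRNA and for siNC. Fold changes on this scale understate the change of low genes. A call needed a two-sided Benjamini-Hochberg adjusted p under 0.05 over all genes, and 95% intervals are given. Calls rest on a spread pooled across genes: with 4 libraries against 2, the smallest exact permutation p is 0.0667. Separate cultures are not stated for the libraries of a group, and their spread, which the p-values measure, may be technical.

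Depth was estimated from the steps between low FPKM values of short RNA genes, of which 87.2% to 90.7% were whole reads within 0.12 reads. MANF and HYOU1 have 2 entries each, and the one with the higher mean was used. Motifs were searched with Python 3.11.15. The genes, their role classes and the other pathway lists were chosen with earlier results of these data known. Genes named were HSPA5, HSP90B1, CALR, XBP1, ATF6, ERN1 and EIF2AK3, those called with the mean and each siRNA, the 4 largest differences between siRNAs per series, those called in opposite directions, and up to 2 genes per direction of each other list. Further members were named with their values known. A gene that met this rule is not reported here. The settings varied were the scaling (quantile or median-ratio), the pseudocount (0.1), the filter (none or 5 FPKM), pooling of both siRNAs, a minimum log2 change of 0.2, a replicate block, and single libraries left out. The fit was tested on simulated data. The EZH2 CUT&Tag samples and protein sequences were not analysed here.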

Additional observations from a re-analysis of the deposited data

Results flagged for a closer look

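Genes called in opposite directions with the 2 siRNAs of a target, with the difference itself called, were DERL2 in the EZH2 series (siEZH2-2 minus siEZH2-1, log2 -0.42), and DNAJB9 (-0.68) and SYVN1 (0.43) in the LAT1 series (siLAT1-3 minus siLAT1-2). XBP1 lay below siNC in all 4 siEZH2 libraries (log2 -0.44 with the mean of both) and above siNC in all 4 siLAT1 libraries (0.17). The -0.44 averages -0.04 with siEZH2-1 (limma adjusted p = 0.622) and -0.84 with siEZH2-2. With both siRNAs pooled as 1 group neither call was made (adjusted p = 0.328 and 0.0681). The share of all genes lying on opposite sides of siNC in this way was not counted. The difference between the series was not tested.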

How the results depend on the processing

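Of 94 calls made for these genes over all contrasts, 18 held under every alternative run, 76 were lost under at least 1, 50 of them when 1 library was left out, and 0 changed sign. Alternatives also added 27 calls, over 19 combinations of gene and contrast, among them HYOU1 with siEZH2-2 and SDF2L1, VCP, DNAJB11 and HSPA5 in the LAT1 series. Calls of small changes were lost most plainly with a minimum log2 change of 0.2 in the test: the counts of called genes went from 9 to 3 for the mean of both siEZH2, from 8 to 3 for siEZH2-1, from 7 to 2 for siEZH2-2, from 9 to 2 between the EZH2 siRNAs, from 14 to 0 for the mean of both siLAT1, from 13 to 4 for siLAT1-2, from 21 to 1 for siLAT1-3 and from 13 to 5 between the LAT1 siRNAs. Without a filter on low values, which tests more genes, they were 4 for the mean of both siEZH2, 5 for siEZH2-1, 9 for the mean of both siLAT1, 5 for siLAT1-3 and 7 between the LAT1 siRNAs. With both siRNAs pooled as 1 group they were 2 and 5. Leaving out 1 library gave 4 to 8, 3 to 8, 4 to 7 and 5 to 8 called genes for the EZH2 contrasts and 9 to 14, 10 to 13, 6 to 20 and 8 to 11 for the LAT1 contrasts, in the same order, where a lone library of a group was assumed to vary like the others. With the replicate number as a block the counts were 7, 5, 5 and 6 (EZH2 contrasts) and 12, 13, 16 and 10 (LAT1 contrasts). The correlations of same-numbered libraries' deviations differed in sign between EZH2 groups (-0.353 for siEZH2-1 with siEZH2-2, 0.355 for siEZH2-1 with siNC, -0.34 for siEZH2-2 with siNC) and were 0.0177, 0.0334 and 0.0826 between LAT1 groups. The labels pair no libraries and the numbers were not taken as pairs, and in the EZH2 series the block may join unlike libraries. Depth limits the lowest genes most, such as ERN1 and EIF2AK3.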
